A study of Mus musculus with 120 samples.

Results

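The libraries described here are 6 made from mouse bone-marrow-derived macrophages at T4 with halofuginone at 625, 2500 or 10000 nM and no proline, 2 at each dose, and the 12 control libraries at T4 they were set against. They were chosen by the time, dose and treatment in their names, and are 18 of the 120 libraries of the series. The macrophages were grown from the marrow of wild-type C57BL/6 male mice aged 12 weeks, and the cells of all 18 libraries had been transduced with a virus that reports transcription factor activity. They were seeded in 96-well plates on day 9 of culture. The series design puts halofuginone 30 minutes before bacterial lipopolysaccharide (LPS), whereas the treatment protocol names a 4-hour dose curve with LPS and without it. No label says which libraries received LPS, what the controls were given in place of halofuginone, or the unit of the time label 4, so T4 is read as a time after LPS from the series design. The labels do not give the number of mice, and nothing in them says that replicates are separate cultures. Every p-value therefore measures only the spread between these libraries, which may be technical.

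Halofuginone occupies the proline and tRNA pocket of the prolyl-tRNA synthetase encoded by Eprs. Uncharged tRNA is sensed by the kinase GCN2, which phosphorylates the initiation factor eIF2 and raises translation of the transcription factor ATF4. Macrophages sense LPS through Toll-like receptor 4: NF-kB first drives chemokine, cytokine and inhibitor genes, and secreted interferon beta then drives antiviral genes through the Janus kinases, the STATs and the interferon regulatory factors. The comparison addresses what high doses of halofuginone do to macrophage mRNAs late after LPS.

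These are shallow libraries of transcript 3′ ends, and the treated ones differed from the controls in depth and make-up. The treated libraries held 44763.8 ± 11597.2 counts (SD, n = 6), and the controls 75616.7 ± 19587.0 (SD, n = 12). Rn45s, the ribosomal precursor RNA, took 61.5 to 67.6% of the counts of a treated library and 27.0 to 42.7% of a control. Without it, 9954 to 23230 counts were left in the treated libraries and 31289 to 69316 in the controls. At an equal depth of 9954 of these counts, 2406 to 2566.7 genes were expected to have a count in a treated library and 2868.9 to 2963 in a control. The 10 highest genes other than Rn45s held 19.3 to 23.1% of the remaining counts in the treated libraries and 13.3 to 15.7% in the controls, and Lars2 alone 10.6 to 13.2% against 1.97 to 4.83%. In each of these measures but the total, no treated library overlapped a control, with p = 0.000108 in an exact two-sided permutation test of the labels (adjusted p = 0.000123 over 8 measures), the smallest p it can give; the total had an adjusted p of 0.00119. The macrophage marker Csf1r, the receptor for the growth factor M-CSF, had 461.5 scaled CPM in controls and 470.9 in treated libraries. Other markers went both ways. Means were lower in treated libraries for Emr1 (148.0 in controls and 76.7), Itgam (143.6 and 107.7) and Fcgr1 (254.8 and 162.2). Cd14, which is also on the LPS list, had 636.5 and 109.4. Higher means in treated libraries were those of Cd68 (74.7 in controls and 135.7) and Mertk (6.59 and 31.9, from 7 and 5 counts). Emr1, Itgam, Fcgr1 and Cd68 did not pass the test described below. Lyz2, another defining macrophage marker, had 1 count in each group. The neutrophil list summed to 12 raw counts in the 6 treated libraries and 247 in the 12 deeper controls, and the dendritic list to 6 and 110. B cell, T and NK cell and fibroblast lists summed to at most 5 and 53, and red cell and mast cell lists to 0 in both. In scaled CPM the median sums, treated then control, were 51.8 and 247.8 for the neutrophil and 24.4 and 96.3 for the dendritic list. They were 0.0 and 30.5 for B cells, 32.0 and 25.2 for T and NK cells, and 12.7 and 43.5 for fibroblasts. In these bulk samples, fewer cells and less RNA per cell cannot be told apart.

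Of 1315 genes tested, 251 (19.1%) were higher in the treated libraries, 466 (35.4%) were lower and 768 had an unadjusted p under 0.05. Each test was edgeR's quasi-likelihood test of the mean of the 3 doses against control, and a gene was called at a Benjamini-Hochberg adjusted p under 0.05. The median log2 fold change over all genes tested was -0.23, and the median standard error (SE) was 0.43. The split depends on the scale. Scaled by library totals alone, where Rn45s takes its share of every treated library, 35 genes were higher and 726 lower, with a median of -1.11. With the scale adjusted for transcript length, 265 were higher and 323 lower, with a median of -0.03. "Higher" and "lower" below are on the TMM scale, and a level, written scaled CPM, is the CPM of the TMM-scaled library. Genes named without a value are the members behind a small count and were picked after their values were seen. In 45 genes (3.42%) all 6 treated libraries lay above all 12 controls, and in 184 (14%) they lay below. Of the 717 genes called, 697 had the same sign at each of the 3 doses.

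Interferon-induced genes moved in both directions, and the 2 most abundant in controls, Rsad2 and Ifit1, fell. Of 49 tested antiviral effectors and sensors, 26 fell and 9 rose, where 35.4% of all genes fell and 19.1% rose. Their median log2 fold change was -0.60 against -0.23 over all genes tested. Their summed level was 43826.4 to 52388.5 scaled CPM in controls and 26306.6 to 34111.0 in treated libraries, so the groups did not overlap. The median was below 0 on every scale computed, from -1.43 on library totals to -0.25 with the length adjustment, where 15 fell and 14 rose. On library totals 38 fell and 1 rose. The median of all genes tested was also below 0 on every scale. It was -1.11 on library totals, where 726 of 1315 genes fell and 35 rose. With the length adjustment it was -0.03, where 323 of 1307 fell and 265 rose.

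The promoters of Ifit1, Rsad2 and Cxcl10 are shown because the first 2 genes fell and the third rose, although each holds a match to the core of the interferon-stimulated response element, which is GAAA, 2 bases of any kind and GAAA again. The windows run from 250 bases before to 50 after the RefSeq transcript start in GRCm38.p6, and both strands were searched, so that a match on the other strand begins and ends with TTTC. They are chr19:34640639-34640938 on the plus strand for Ifit1, chr12:26456403-26456702 on the minus strand for Rsad2 and chr5:92348840-92349139 on the minus strand for Cxcl10. Capitals mark these matches and, in Cxcl10, also the NF-kB type sequence of GGGA, 2 bases of any kind and TTCC.
Ifit1: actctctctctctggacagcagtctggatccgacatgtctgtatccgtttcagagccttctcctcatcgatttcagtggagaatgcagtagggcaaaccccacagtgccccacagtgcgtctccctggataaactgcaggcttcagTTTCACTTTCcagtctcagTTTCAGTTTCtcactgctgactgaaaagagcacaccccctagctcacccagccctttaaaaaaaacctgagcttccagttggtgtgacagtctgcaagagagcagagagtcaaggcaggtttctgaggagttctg
Rsad2: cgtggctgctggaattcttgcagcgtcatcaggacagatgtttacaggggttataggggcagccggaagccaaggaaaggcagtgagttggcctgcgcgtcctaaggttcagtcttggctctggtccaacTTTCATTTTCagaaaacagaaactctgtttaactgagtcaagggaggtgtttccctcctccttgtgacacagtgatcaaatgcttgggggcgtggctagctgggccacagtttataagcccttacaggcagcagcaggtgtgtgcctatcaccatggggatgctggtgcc
Cxcl10: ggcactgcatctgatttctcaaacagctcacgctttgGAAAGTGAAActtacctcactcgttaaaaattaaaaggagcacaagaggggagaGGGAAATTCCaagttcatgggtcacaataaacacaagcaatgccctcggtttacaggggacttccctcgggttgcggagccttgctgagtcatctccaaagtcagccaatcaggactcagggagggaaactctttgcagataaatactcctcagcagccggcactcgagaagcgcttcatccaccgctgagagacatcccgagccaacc

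The interferon core was found in the promoter windows of 1079 of 27025 genes (3.99%), and the NF-kB type sequence in 441 of 27025. Of the 38 tested antiviral effectors with a promoter in the table, 17 (44.7%) held the interferon core: 12 of 22 that fell, 2 of 7 that rose and 3 of 9 that were not called. Over all genes tested it was in 12.6% of those that fell, 9.04% of those that rose and 6.5% of the rest. Ifit2, which rose, held no interferon core in its windows, while 1 of them held the NF-kB type sequence. A match is a description of the letters and not a binding site.

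Ifit1 (chr19:34640871-34650009), whose protein binds viral RNA ends, ran from 3969.5 to 6025.7 scaled CPM in controls with a median of 4821.2. Its treated levels were 511.8 and 601.7 at 625 nM, 666.0 and 977.9 at 2500 nM, and 760.3 and 556.9 at 10000 nM. All 6 lay far below every control, a fold change of -2.85 (log2, SE 0.18, edgeR adjusted p = 5.97e-23). Rsad2 (chr12:26442746-26456452) encodes viperin, an antiviral enzyme, and was the most abundant gene of the list in controls. It ran from 12427.2 to 18447.4 in controls with a median of 14985.5. Treated libraries held 4752.9, 2789.6, 3737.3, 3178.3, 3497.6 and 4498.3 in the same order of doses. No treated library reached the controls, and the log2 fold change was -2.05 (SE 0.14, edgeR adjusted p = 6.02e-21).

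Ifit2 (chr19:34550694-34576419), a neighbour of Ifit1 in the same protein family, moved the other way. Its controls ran from 1844.4 to 3328.9 scaled CPM with a median of 2531.6. Treated levels were 7531.5, 6317.7, 5439.4, 4009.6, 5322.4 and 5312.2, all above the highest control, and the log2 fold change was 1.15 (SE 0.13, edgeR adjusted p = 3.35e-11). On library totals alone it was 0.24 and not called. Ifi205 and Mnda, which encode DNA-binding proteins of the PYHIN family, fell by 2.09 and 1.99 on the log2 scale without overlap between the groups. Their sequences are near copies of each other, and reads could be shared between them.

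The interferon-induced GTPases, which attack the vacuoles of pathogens, had shares near those of all genes: of 12 tested, 3 rose and 5 fell, where 19.1% of all genes rose and 35.4% fell. With the length adjustment 4 rose and 3 fell, and on library totals 7 fell and none rose. The 5 that fell were Gbp7, Irgm1, Irgm2, Iigp1 and Ifi47. Gvin1 had a median of 1249.3 scaled CPM in controls and 2723.6 in treated libraries, and Gbp5 had 808.1 and 1982.6, while Gbp2 had 589.1 and 1146.6. These 3 rose by 1.13, 1.18 and 0.94 on the log2 scale, with overlapping groups, and none of them was called on library totals, where their values were 0.23, 0.28 and 0.03. Gbp7 went from a control range of 406.6 to 792.7 down to 73.1 to 300.8 in treated libraries, without overlap, a log2 fold change of -1.35 (SE 0.27, edgeR adjusted p = 2.2e-05).

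Among 10 tested regulators of the interferon response, 4 fell and 1 rose, also near the shares of all genes (35.4 and 19.1%). Irf9 and Socs3 were among the lower ones. Irf8, a transcription factor of the macrophage lineage, had 206.6 to 431.2 scaled CPM in controls. It had no count in either 2500 nM library and 27.3 to 109.7 in the others, below every control (edgeR adjusted p = 1.99e-08). Irf7, which drives interferon alpha genes, fell from a control median of 453.9 to a treated median of 80.9 without overlap, by 2.17 on the log2 scale. Jak2, a kinase of cytokine receptors, rose from a median of 446.3 to 981.1, also without overlap, but on library totals its log2 value was 0.21 and not called.

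**Figure D1:**
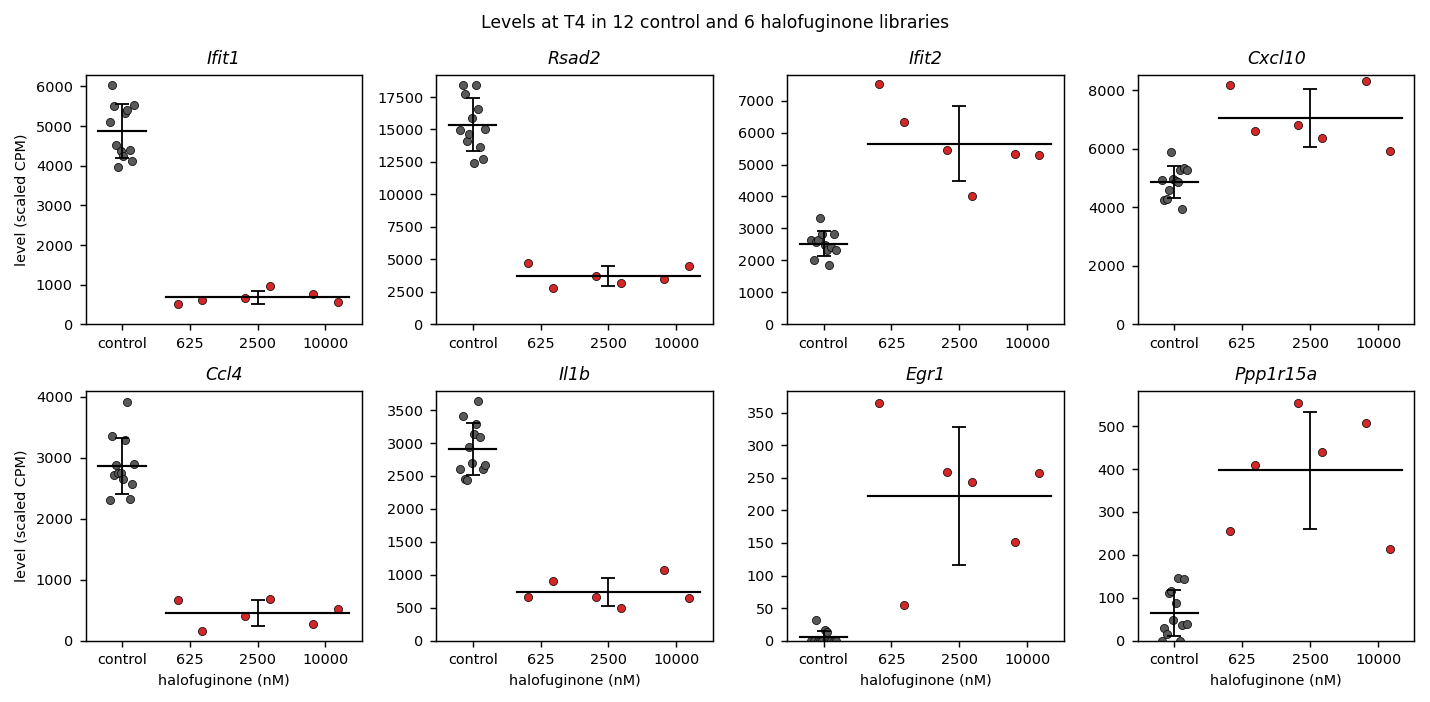
Level of 8 genes at T4 in scaled CPM (vertical axes, from 0), 1 point a library, for 12 controls (grey) and 6 halofuginone libraries (red) placed by dose in nM; bars are the mean and its SD in each group. Ifit1, Rsad2, Ccl4 and Il1b lie below all controls at every dose, whereas Ifit2, Cxcl10, Egr1 and Ppp1r15a lie above them.

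Among the chemokine genes Ccl3, Ccl4, Ccl5 and Ccl7 fell, whereas Cxcl10 rose in the T4 fit but not on every scale. Of 13 tested, these 4 fell and 3 rose, Cxcl10, Cxcl16 and Ccl9, near the shares of all genes (35.4 and 19.1%). Their median of -0.33 was close to that of all genes and turned to 0.49 with the length adjustment, where 5 rose and 3 fell. Ccl3, Ccl4 and Ccl5 encode attractants of T cells and macrophages, and Ccl7 a monocyte attractant.

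Ccl4 (chr11:83662584-83664683) ran from 2307.6 to 3909.5 scaled CPM in controls with a median of 2742.6. Its treated levels were 658.1, 164.1, 407.0, 684.6, 278.8 and 514.1. Every treated library was below every control, and the log2 fold change was -2.74 (SE 0.20, edgeR adjusted p = 9.82e-20). Ccl5 fell in the same way, from a control range of 2415.5 to 3945.9 to a treated range of 171.4 to 1026.8, by 2.61 on the log2 scale. Ccl7 fell by 2.63 and Ccl3 by 1.88, both without overlap, although Ccl3 was not called with the length adjustment, where its value was -0.37.

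Cxcl10 (chr5:92346638-92348889), a T cell attractant induced by both NF-kB and interferon, ran from 3929.0 to 5870.2 scaled CPM in controls with a median of 4909.7. Treated libraries held 8189.6, 6618.6, 6808.5, 6356.6, 8313.1 and 5912.0. The lowest treated library was just above the highest control, and the log2 fold change was 0.53 (SE 0.12, edgeR adjusted p = 0.000169). That direction depends on the scale: on library totals it was -0.38. Fitted together with the T0 libraries, the same T4 contrast was 0.19 and not called (edgeR adjusted p = 0.288). Fitted with the T1 libraries it was 0.35 (adjusted p = 0.0179). Cxcl2, a neutrophil attractant, had a median of 822.3 in controls and 828.1 in treated libraries, with an adjusted p of 0.69.

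Of 9 tested cytokine genes, 4 fell, Ebi3 among them, and 1 rose, beside 35.4 and 19.1% of all genes. Their median of -0.44 turned to 0.20 with the length adjustment. Il1b (chr2:129364570-129371139), the precursor of interleukin 1 beta, ran from 2439.4 to 3636.8 scaled CPM in controls with a median of 2817.9. Its treated levels were 658.1, 902.5, 666.0, 489.0, 1064.5 and 642.6. All were below the controls, with a log2 fold change of -1.97 (SE 0.18, edgeR adjusted p = 8.73e-16). Il1rn, which encodes the receptor antagonist of interleukin 1, fell from a control median of 700.8 to 149.0, with no overlap and no count in the second 2500 nM library. Its log2 fold change of -2.27 became -4.20 without the first 2500 nM library, where that dose has no count and the fitted value is no bound.

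Il6 overlapped between the groups, with 70.5 to 449.5 scaled CPM in controls and 48.9 to 257.0 in treated libraries. It fell by 0.95 on the log2 scale (edgeR adjusted p = 0.0252), a call that was lost without the first 10000 nM library (-0.92), the second 2500 nM library (-0.79) or the first 625 nM library (-0.84). Tnf, the gene of tumor necrosis factor, had a log2 fold change of -0.44 (adjusted p = 0.206), and Il12b, a subunit of interleukin 12, of -0.34 (adjusted p = 0.403). Fitted together with the T0 or T1 libraries, Tnf at T4 was called lower, at -0.78 (edgeR adjusted p = 0.0297) and -0.62 (adjusted p = 0.0407). Il12b was called in neither of these fits. Ifnb1, the interferon beta gene itself, had 10 counts in the 6 treated libraries and 2 in the 12 controls, a ratio of 29.3 with a 95% counting interval from 6.24 to 274.6. Its call (edgeR adjusted p = 0.00116) was lost without the first 625 nM library, where the log2 value, with no count left at that dose, was 2.36 and is no bound.

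Of 14 tested members of the NF-kB list, which holds inhibitors that NF-kB induces in its own response, 3 fell, with Nfkb1 among them, and 2 rose, with Nfkbib among them. These are lower shares than the 35.4 and 19.1% of all genes. The median of -0.31 turned to 0.01 with the length adjustment, where 3 rose and 3 fell, and on library totals 11 fell and none rose. Nfkbia (chr12:55489410-55492647), which encodes the inhibitor IkB alpha, ran from 1771.3 to 2678.1 scaled CPM in controls and from 703.0 to 1028.2 in treated libraries. The groups did not overlap, and the log2 fold change was -1.39 (SE 0.17, edgeR adjusted p = 2.46e-10). Tnfaip2 fell by 1.01, also without overlap. Tnfaip3, the gene of the ubiquitin-editing enzyme A20, had a median of 488.3 in controls and 1029.9 in treated libraries and rose by 0.96, but on library totals its value was 0.04 and not called.

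Among 18 tested enzymes and surface proteins that LPS induces, 8 fell and 2 rose, Cd83 and Cd69, where 35.4% of all genes fell and 19.1% rose. Their median of -0.25 was near the -0.23 of all genes. With the length adjustment 8 fell and 3 rose, and on library totals 14 fell and none rose. Irg1, which makes itaconate, went from 1381.5 to 1974.2 scaled CPM in controls to 380.2 to 694.7 in treated libraries and fell by 1.65 on the log2 scale (SE 0.20, edgeR adjusted p = 7.31e-11). The acute-phase gene Saa3 fell by 2.74, Cd14, the LPS co-receptor, by 2.53, and Clec4e, a receptor for mycobacterial glycolipid, by 1.73. In each of these 4 genes no treated library overlapped a control. Nos2, the inducible nitric oxide synthase, overlapped, with medians of 72.8 in controls and 128.6 in treated libraries and an adjusted p of 0.498.

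A small number of early-response and stress genes rose, Egr1, Jun and Ppp1r15a among them from low control levels. Of 8 tested immediate early genes, 4 rose, Junb and Btg1 among them, and 2 fell, Klf6 and Gadd45b, beside 19.1 and 35.4% of all genes. Their median of 0.48 turned to -0.42 on library totals, and with the replicate number as a block 1 was higher and 0 lower. Fitted together with the T0 libraries, Junb at T4 was 0.16 (edgeR adjusted p = 0.566) and Btg1 0.48 (adjusted p = 0.112). With the T1 libraries Junb was 0.32 (adjusted p = 0.15) and Btg1 0.64 (adjusted p = 0.0242). Egr1, an early growth response transcription factor, had a median of 0.0 and at most 32.0 scaled CPM in the controls. Its treated levels were 365.6, 54.7, 259.0, 244.5, 152.1 and 257.0, all above the highest control. The fitted log2 fold change was 4.92 (SE 0.63, edgeR adjusted p = 8.26e-10), and 4.32 without the first 625 nM library. Jun, a subunit of AP-1, had a median of 37.6 in controls and 158.1 in treated libraries and rose by 2.10, but this call was lost without the first 10000 nM library (1.68).

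Ppp1r15a (chr7:45522916-45526268) encodes GADD34, the phosphatase subunit that reverses eIF2 phosphorylation, and was the largest increase among the genes named by size. It had 0.0 to 146.2 scaled CPM in controls with a median of 43.9. The treated levels were 255.9, 410.2, 555.0, 440.1, 506.9 and 214.2, all above the controls, a log2 fold change of 2.51 (SE 0.36, edgeR adjusted p = 2.04e-08). The other amino acid response genes could hardly be read at this depth. Of the 35 genes of the ATF4 list 7 were tested: 1, Ppp1r15a, rose and 1, Cebpb, fell, beside 19.1 and 35.4% of all genes. Cebpb fell by 1.26 on the log2 scale (edgeR adjusted p = 0.00433). Its value was -1.88 without the first 2500 nM library, and -0.47 and not called after the length adjustment. The list median of -0.25 turned to 0.40 with that adjustment. Atf4 itself had medians of 75.5 in controls and 68.2 in treated libraries (log2 fold change -0.25, adjusted p = 0.757). Asns had 10 counts in the controls and 4 in the treated libraries, Ddit3 14 and 1, and Trib3 1 and 0, too few to test. Eprs, the target of the compound, had 55 raw counts in the controls and 6 in the treated libraries and did not pass the filter. On the scale of all 120 libraries its means were 60.0 and 30.9 CPM. Only Nars among 21 cytosolic tRNA synthetase genes was tested, and it was not called (log2 fold change 0.04, edgeR adjusted p = 0.977).

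Of 7 tested heat shock genes, chaperones of the mitochondrion and cytosol, 3 were higher, Hspa9, Hspa8 and Cct2, and 2 lower, Hsp90aa1 and Dnaja1, beside 19.1 and 35.4% of all genes. On library totals 3 were lower and none higher, and with the replicate number as a block none was called. Hspa9, the mitochondrial Hsp70, had medians of 106.6 scaled CPM in controls and 335.0 in treated libraries and rose by 1.54 on the log2 scale (edgeR adjusted p = 0.000163), with overlap. On library totals its value was 0.66 and not called. Of 12 tested genes of ferritin and oxidative defence, 7 fell, with a median of -2.03, where 35.4% of all genes fell. With the length adjustment 5 fell and 1 rose, and the median was -0.87. Ftl1, the ferritin light chain, went from 1252.5 to 2082.7 in controls to 85.7 to 464.9 in treated libraries and fell by 2.66. Prdx1, a peroxidase, had 252.0 to 610.5 in controls and counts in just the 2500 nM libraries among the treated, at 74.0 and 97.8 (edgeR adjusted p = 3.31e-11). The cell-cycle inhibitor gene Cdkn1a and the cyclin gene Ccnd2 fell by 2.16 and 2.15, both without overlap.

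**Figure D2:**
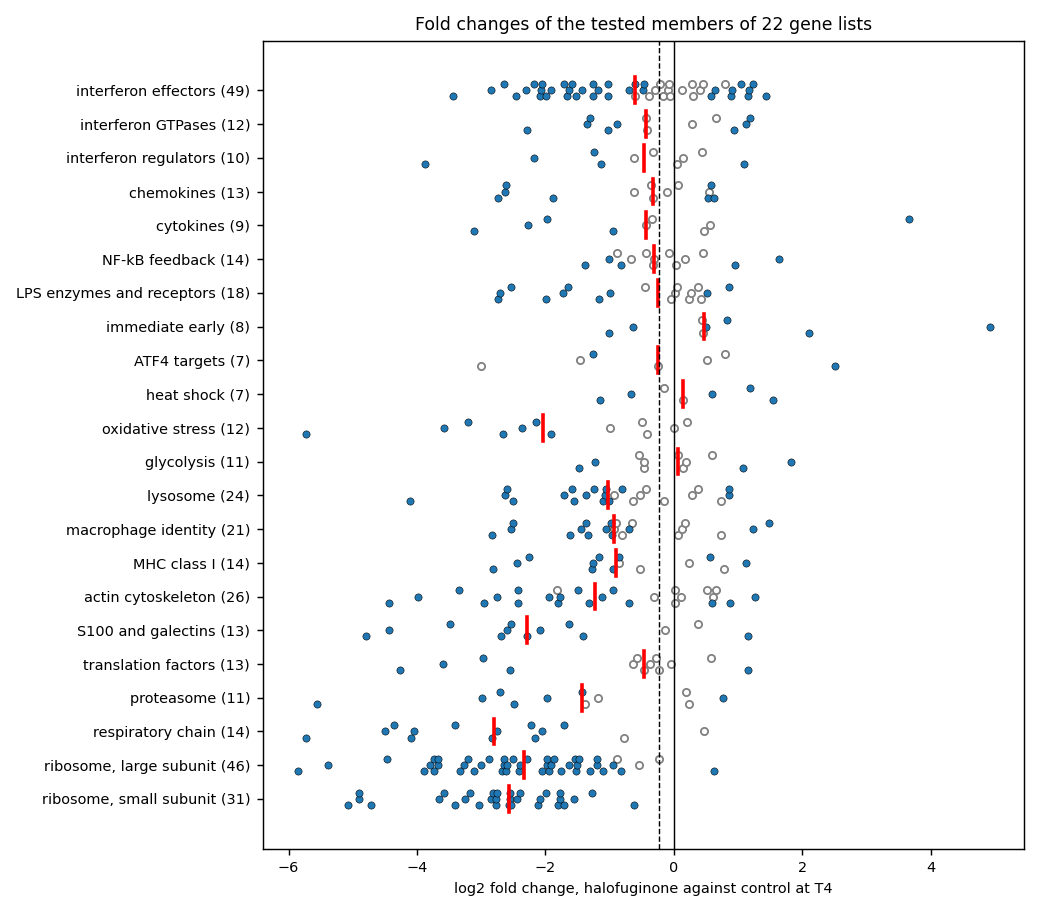
Log2 fold change at T4, halofuginone against control (horizontal axis), of the tested members of 22 gene lists (rows, number tested in brackets); filled points passed an adjusted p of 0.05, open points did not, red bars are list medians and the dashed line is the median of all genes tested, -0.23. Ribosomal, respiratory chain and S100 lists lie furthest to the left, and interferon and chemokine lists spread to both sides.

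Ribosomal protein genes fell together. Of 46 tested genes of the large subunit 42 fell and 1 rose, and of 31 of the small subunit all 31 fell, with medians of -2.34 and -2.57. Over all genes tested 35.4% fell and 19.1% rose. The small-subunit genes summed to 9930.3 to 15040.6 scaled CPM in controls and to 2434.1 to 2965.3 in treated libraries, and the large-subunit genes to 13070.4 to 19833.9 and 4326.9 to 5587.4. Neither sum overlapped. The direction held on each scale computed, but the size did not: with the length adjustment the medians were -0.89 and -1.42, and 20 of 46 and 21 of 31 fell. Rpl4, named here after its values were seen, was the one that rose, by 0.63 (edgeR adjusted p = 0.0199). It was not called without the second 10000 nM library (0.52) or the first 2500 nM library (0.51), by DESeq2 (0.45) or with median-of-ratios scaling (0.46), and was -0.27 on library totals. Many of these genes have processed pseudogenes, between which reads can be split.

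Rps29 ran from 653.1 to 1415.7 scaled CPM in controls with a median of 918.0. Its treated levels were 146.2, 109.4, 111.0, 48.9, 253.4 and 128.5, a log2 fold change of -2.77 (SE 0.31, edgeR adjusted p = 8.21e-12), which with the length adjustment was -0.73 and not called. Other members had almost no counts left. Rpl32 had 2 counts in the 6 treated libraries and 423 in the 12 controls, a ratio of controls over treated of 36.1 (95% counting interval 9.94 to 299.4). The same ratio was 27.8 (7.63 to 230.3) for Rpl12, with 2 and 325 counts. Rps4x had 231.0 to 664.3 in controls and at most 50.7 in treated libraries. Rps26 had 140.9 to 327.6 in controls and at most 85.7, with counts in just the 10000 nM libraries.

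Other housekeeping mRNAs were lower in the same libraries. Of 14 tested nuclear-encoded subunits of the respiratory chain 12 fell, with a median of -2.79, and of 11 proteasome subunits 6 fell and 1, Psma4, rose, with a median of -1.43. With the length adjustment 4 and 2 fell. Before that adjustment 35.4% of all genes fell and 19.1% rose, and after it 323 of 1307 fell and 265 rose. Cox6c, a subunit of cytochrome oxidase, had 119 counts in the controls and 0 in the treated libraries, at least 6.78-fold lower against a floor of 3 counts over the group. Psma2, a proteasome subunit, had 105 and 0, at least 5.98-fold lower, although its lowest control also had no count. Psma6 fell from a median of 187.6 to 37.1 (edgeR adjusted p = 9.96e-05). Translation factors of the same mRNA class as ribosomal proteins were mixed: of 13 tested, Eef1b2, Eif4a1, Gnb2l1 and Fau fell and 1 rose. The one that rose was Tpt1 (chr14:75845093-75848525), which encodes the tumor protein TCTP. Its control range was 2378.3 to 4722.0 with a median of 2766.9, and its treated levels were 6873.4, 5196.4, 6808.5, 4351.8, 11354.5 and 5654.9. It rose by 1.15 on the log2 scale (SE 0.14, edgeR adjusted p = 2.02e-10), although on library totals its value was 0.24 and not called.

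Genes of macrophage identity and function were mostly lower on the TMM scale. In the macrophage identity list 11 of 21 tested fell and 2 rose (median -0.93), in the lysosome list 14 of 24 fell and 2 rose (-1.03), and in the MHC class I list 8 of 14 fell and 2 rose (-0.90). Those that rose were Lrp1 and Sirpa, Ctsc and Grn, and H2-Q4 and Calr. With the length adjustment 5, 11 and 4 of them fell and 4, 3 and 2 rose. Shares of all genes before that adjustment were 35.4% lower and 19.1% higher, and after it 323 of 1307 genes fell and 265 rose. The macrophage identity and MHC class I lists thus lay near all genes after the adjustment. Ctsb, the protease cathepsin B, went from 1154.1 to 1986.6 scaled CPM in controls to 333.0 to 840.9 and fell by 1.56 on the log2 scale. Cst3, the cathepsin inhibitor cystatin C, fell by 2.50, and Psap, the precursor of the saposins, by 1.71. In these 3 genes the groups did not overlap. B2m, the light chain of MHC class I, went from 1338.8 to 2571.7 to 128.5 to 475.3 and fell by 2.81 (SE 0.27, edgeR adjusted p = 1.04e-14), while the heavy-chain gene H2-D1 fell by 1.27 with overlap. Spp1, the secreted protein osteopontin, fell by 1.44. Fcer1g, the signalling chain of Fc receptors, fell by 2.50, but with the length adjustment its value was -0.93 and not called. Csf1r was not among the lower genes, with a log2 fold change of 0.06 (adjusted p = 0.843) whose sign changed with the scale.

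Cytoskeletal and galectin genes fell in the same libraries. Of 26 tested actin regulators 15 fell and 3 rose (median -1.22), and of 13 S100, galectin and annexin genes 10 fell and 1 rose (-2.28). Lcp1, Msn and Flna, and Anxa4, were those that rose. With the length adjustment 9 and 5 fell and 4 and 2 rose. All genes tested had 35.4% lower and 19.1% higher before that adjustment, and 323 of 1307 lower and 265 higher after it. Tmsb4x, thymosin beta 4, a binder of free actin, ran from 1462.1 to 2750.4 scaled CPM in controls and held 182.8, 109.4, 222.0, 146.7, 481.6 and 128.5 in treated libraries. It fell by 3.34 on the log2 scale (SE 0.25, edgeR adjusted p = 8.1e-20). Actb, beta actin, fell by 0.95, from 11934.2 to 15970.7 down to 6468.9 to 8436.6, without overlap. Lgals3, galectin 3, fell by 2.54, and Lgals1 went from 186.2 to 341.9 to at most 128.5, with no count at 2500 nM. Of 6 tested TGF-beta response genes 3 rose, Junb among them, and 1, Pmepa1, fell, and their median of -0.05 turned to 0.36 with the length adjustment. Skil and Id2, inhibitors of SMAD and of helix-loop-helix factors, rose by 1.08 and 1.00 with overlap, and neither was called on library totals, at 0.18 and 0.11.

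The 12 largest increases and decreases among the more abundant genes were named by size alone. Besides Ppp1r15a, the increases included Ssfa2, Golga3, Akap13, Stxbp3a, Eif4g1, Golph3, Slfn4 and Ap3b1, with log2 fold changes from 1.98 for Ssfa2 to 1.58 for Ap3b1. Golga3 encodes a golgin, Akap13 an anchoring protein and Ap3b1 an adaptor of lysosomal traffic. Eif4g1, the scaffold of the cap-binding complex, rose from a median of 130.8 scaled CPM in controls to 434.2 in treated libraries, without overlap. Ap3b1 was not called on library totals, where its value was 0.68.

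The decreases by size were genes with hardly a count left in the treated libraries. Oaz1, which limits polyamine synthesis, had 1 treated count and 261 control counts, a ratio of 44.6 (95% counting interval 7.94 to 1768.3). Cd52, a small surface glycoprotein, had 1 and 253, a ratio of 43.2 (7.69 to 1714.3), and Cyba, a subunit of the phagocyte oxidase, 1 and 237, a ratio of 40.5 (7.20 to 1606.3). Emp3 had 2 and 251, a ratio of 21.4 (5.88 to 178.1). Their intervals cover counting error only, and 59 of the genes called had at most 3 treated counts in all.

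Structural RNAs moved opposite to these mRNAs: of 8 tested, 7 rose, with a median of 1.94, where 19.1% of all genes rose and 35.4% fell. Leaving 6 of them out of the table gave 170 higher and 417 lower of 1402 genes. Lars2, which the list counts among them although the symbol is that of the mitochondrial leucyl-tRNA synthetase mRNA, rose by 1.70 on the log2 scale, Malat1, a long nuclear RNA, by 1.55, and Rn4.5s by 4.31. Rnu6, the U6 RNA of the spliceosome, ran from 0.0 to 49.3 scaled CPM in controls with a median of 18.7. Its treated levels were 1499.0, 820.5, 1406.1, 2640.4, 1216.6 and 2613.3, and it rose by 6.28 (SE 0.34, edgeR adjusted p = 4.24e-27). U6 RNA has many copies in the genome, so its counts cannot be assigned to 1 locus.

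Fold changes followed transcript length. Of the 1315 genes 1307 had a length, taken from the longest GENCODE M21 transcript of the symbol. Across these genes the log2 fold change had a Spearman rho of 0.46 with length and a Pearson r of 0.47 with its log10, as a description over genes that share the same 18 libraries. In the shortest eighth, of 107 to 1165 nucleotides, 136 genes fell and 7 rose, with a median of -2.55. In the longest, from 6978 nucleotides, 63 rose and 17 fell, with a median of 0.74. The median length was 4325 nucleotides for genes that rose, 1996 for those that fell and 3143 for all. Weighted by counts, the mean length was 3326.8 ± 46.0 nucleotides in treated libraries (SD, n = 6) and 2533.5 ± 93.1 in controls (SD, n = 12). The ribosomal lists had median lengths of 930 and 878 nucleotides, the respiratory chain 716 and the S100 list 800. The chemokine list, at 1016 nucleotides, had a median fold change of -0.33. The interferon effectors, at 2597, and Ifit1, at 2656, lay below the median of all genes, in an eighth where 59 of 164 genes fell and 26 rose, and Rsad2 and Ifit2, at 3782 and 3818, lay above it. The part of length, depth and RNA make-up in the fold of any 1 gene was not tested beyond these scales.

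**Figure D3:**
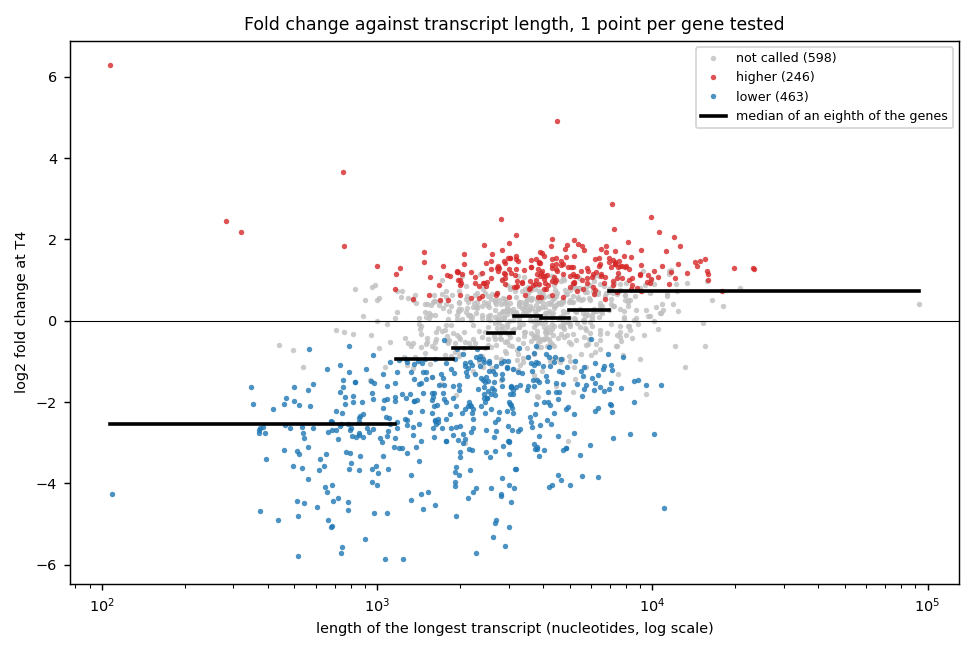
Log2 fold change at T4 (vertical axis) against the length of the longest transcript in nucleotides (horizontal, log scale), 1 point a gene, coloured by call, with black bars at the median of each eighth of the 1307 genes by length. The bars climb from -2.55 in the shortest eighth to 0.74 in the longest.

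The 3 doses gave like results, and so did lower ones down to 39 nM. Against control, 169 genes were higher and 249 lower at 625 nM (12.9 and 18.9%), 114 and 238 at 2500 nM (8.67 and 18.1%), and 164 and 255 at 10000 nM (12.5 and 19.4%), and 176 were called at each dose. Between 10000 and 625 nM, with 2 libraries each, edgeR and DESeq2 called 0 genes, while 115 had an unadjusted edgeR p under 0.05. Without the first 625 nM library edgeR called 5 genes lower at 10000 nM. The median SE of that comparison was 0.90, so this comparison is the least precise of those within T4. For Ifit1 the difference was 0.26 on the log2 scale (95% interval -0.53 to 1.06), and for Cxcl10 -0.05 (-0.54 to 0.44).

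At 39 and 156 nM, 191 genes were higher and 346 lower than control (14.5 and 26.3%), whereas at 2.4 and 9.7 nM 29 were higher and 28 lower (2.21 and 2.13%). Ifit1 averaged 4880.6 scaled CPM in controls, 5164.1 at 2.4 nM, 5505.2 at 9.7 nM, 1101.7 at 39 nM and 605.2 at 156 nM. It was then 556.8, 822.0 and 658.6 at the high doses, so its level dropped between 9.7 and 39 nM. The high doses differed from 39 and 156 nM in 0 higher and 2 lower genes by edgeR (0.152%), with 163 at an unadjusted p under 0.05, and in 2 higher and 3 lower by DESeq2. Without the first 10000 nM library these became 3 and 11, without the first 625 nM library 1 and 4, without the first 2500 nM library 0 and 1, and without the second 156 nM library 0 and 0. For Ifit1 that difference was -0.27 (95% interval -0.79 to 0.25), and for Ccl4 -1.03 (-1.60 to -0.47, adjusted p = 0.0675). The 2 genes called rest on single libraries: Rpl39, at -2.86, lost its call in 6 of the fits without 1 library and was 0.31 without the first 39 nM library, while Ifi203, at -2.10, was -0.84 and not called without the second 156 nM library and -2.89 without the first 10000 nM library.

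Some genes had moved at the lowest doses. At 2.4 and 9.7 nM together Ccl4 was higher than control by 0.64 on the log2 scale (95% interval 0.32 to 0.97, edgeR adjusted p = 0.00644), with 3738.7 scaled CPM at 2.4 nM and 5359.8 at 9.7 nM against 2863.1 in controls, before the drop to 1336.0 at 39 nM. Rnu6 was higher by 2.95 (1.87 to 4.04, adjusted p = 7.11e-05), and Tmsb4x lower, at -0.70 (-1.10 to -0.31, adjusted p = 0.0206). Proline given with the high doses changed 0 genes by edgeR at T4, with 145 at an unadjusted p under 0.05: Ifit1 differed by -0.03 (95% interval -0.50 to 0.44) and Ccl4 by 0.29 (-0.25 to 0.82).

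**Figure D4:**
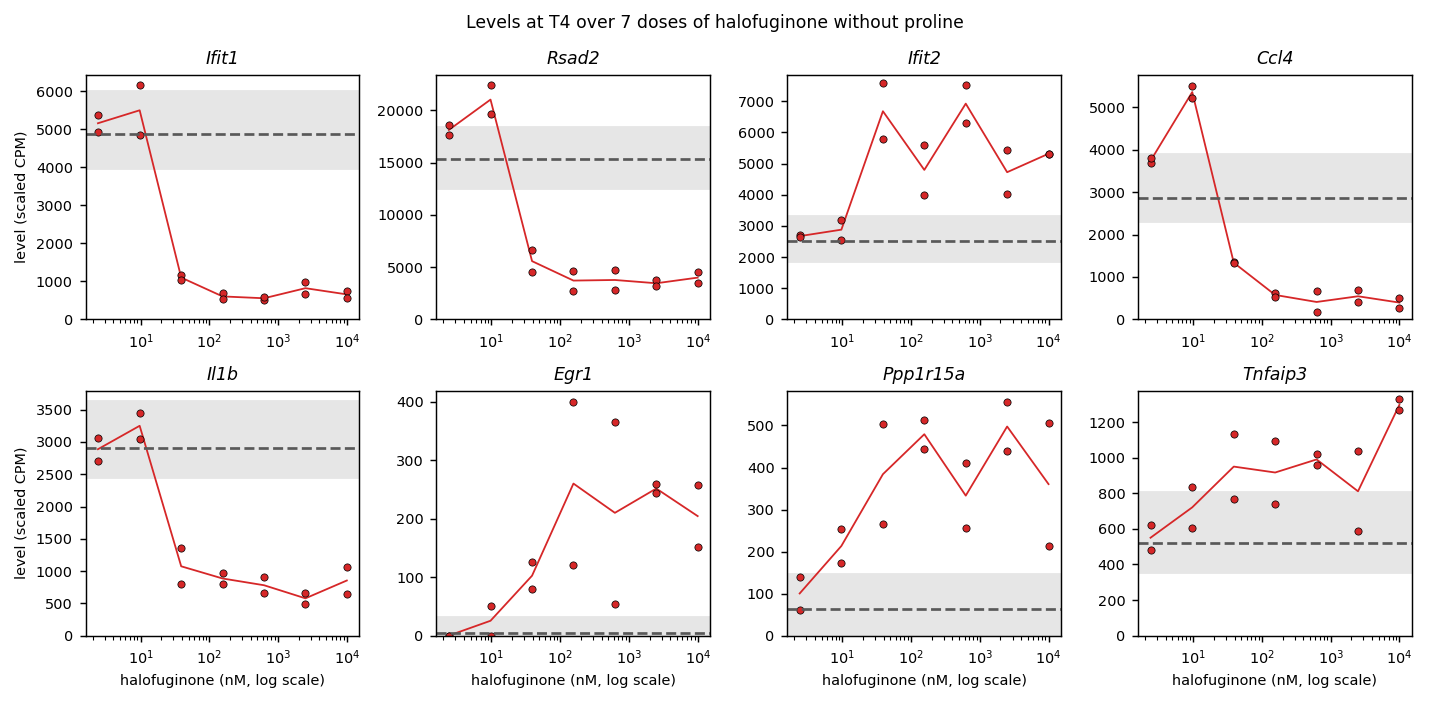
Level of 8 genes at T4 in scaled CPM (vertical axes, from 0) over 7 doses of halofuginone without proline (horizontal, nM on a log scale), with 2 libraries a dose as points and their mean as a line; the dashed line is the mean of 12 controls and the grey band their range. Ifit1, Rsad2, Ccl4 and Il1b leave the control band downwards between 9.7 and 39 nM, and Ccl4 lies above it at 9.7 nM.

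In part of the genes the same doses gave other effects at T0 and, in fewer genes, at T1. This was tested as the change from control at T4 less that at T0 or T1. These comparisons use the controls of each time, and levels in this and the next paragraph are scaled over all 120 libraries. Between T4 and T0, 20 genes of 1468 differed upwards (1.36%) and 233 downwards (15.9%), and between T4 and T1, 8 of 1445 upwards (0.554%) and 77 downwards (5.33%). With the length adjustment these were 37 and 130, and 15 and 43, and the T1 split was 17 and 39 with median-of-ratios scaling, 17 and 56 by DESeq2 and 26 and 36 without structural RNAs. The 20 became 13 without the first 10000 nM library of T0. The 8 became 15 or 14 without the second 10000 or 625 nM library of T1, and 5 without the first 625 nM library of T4. The 77 became 43 without the second 2500 nM library of T1, 47 without the first 10000 nM library of T1 and 48 without the second 10000 nM library of T4. Inflammatory genes stood out in the first. At T0, 7 of 13 tested chemokines were higher with halofuginone (median 4.24), 9 of 15 NF-kB genes (2.50), 14 of 14 immediate early genes (3.72) and 5 of 7 ATF4 genes (2.05), where 169 of 1468 genes were higher (11.5%, median of all -0.38). The change from T0 to T4 was downwards in 8, 10, 10 and 5 of them, with a median of all genes of -0.46. Ribosomal proteins were lower at both times, in 38 large-subunit and 31 small-subunit genes at T0 (22.6% of all genes were lower there), and 19 and 13 differed further downwards at T4.

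Ccl4 averaged 25.1 ± 16.7 scaled CPM in T0 controls (SD, n = 12) and 638.6 ± 218.3 with halofuginone (SD, n = 6), then 1896.6 against 719.4 at T1 and 3171.7 against 363.2 at T4. Its mean treated level thus lay between 363.2 and 719.4 at all 3 times while the controls climbed, and the effect differed by -7.81 on the log2 scale between T4 and T0 (edgeR adjusted p = 2.64e-31). Cxcl2 rose from 27.6 to 2601.7 with halofuginone at T0 and was 984.2 against 681.4 at T4, a difference of -7.00. Il1b, Tnf and Nfkbia differed in the same direction, by -6.53, -5.19 and -4.81, and Nfkbia also between T4 and T1, by -1.69 (adjusted p = 6.92e-09). Atf4 was 62.9 ± 39.1 in T0 controls and 246.6 ± 121.5 with halofuginone, and 78.8 ± 34.4 against 52.4 ± 47.1 at T4, a difference of -2.69 (adjusted p = 0.00289). Without the second 2500 nM library of T4 that difference was -4.23, and without the first 625 nM library of T4 -4.11.

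The interferon genes Ifit1, Rsad2 and Ifit2 had 2, 11 and 4 counts in the treated libraries of T0, so their differences from T0 are imprecise. Ifit1 was 369.8 in T1 controls and 66.6 with halofuginone, and 5374.1 against 551.4 at T4. Its effect at T4 did not pass the test of a difference from T1 (-0.41, edgeR adjusted p = 0.851) or T0 (-0.90, adjusted p = 0.955), and the values were 0.92 without the second 2500 nM library of T1, 0.23 without the first 10000 nM library of T0 and 0.13 without the second 625 nM library of T0. Rsad2 was 616.2 and 73.9 at T1, and 16960.0 and 3042.0 at T4, with differences of 2.02 from T1 (adjusted p = 0.0972, but called at 2.54 without the first 625 nM library of T1 and at 2.24 without the second 625 nM library of T4) and -1.45 from T0 (adjusted p = 0.232), the last of which was 0.32 without the second 2500 nM library of T0. Ifit2 was the largest upward difference between T4 and T0 by the naming rule, at 3.52 (adjusted p = 0.00754), and 5.17 without the second 625 nM library of T0. It had 1000 counts in the treated libraries of T4.

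**Figure D5:**
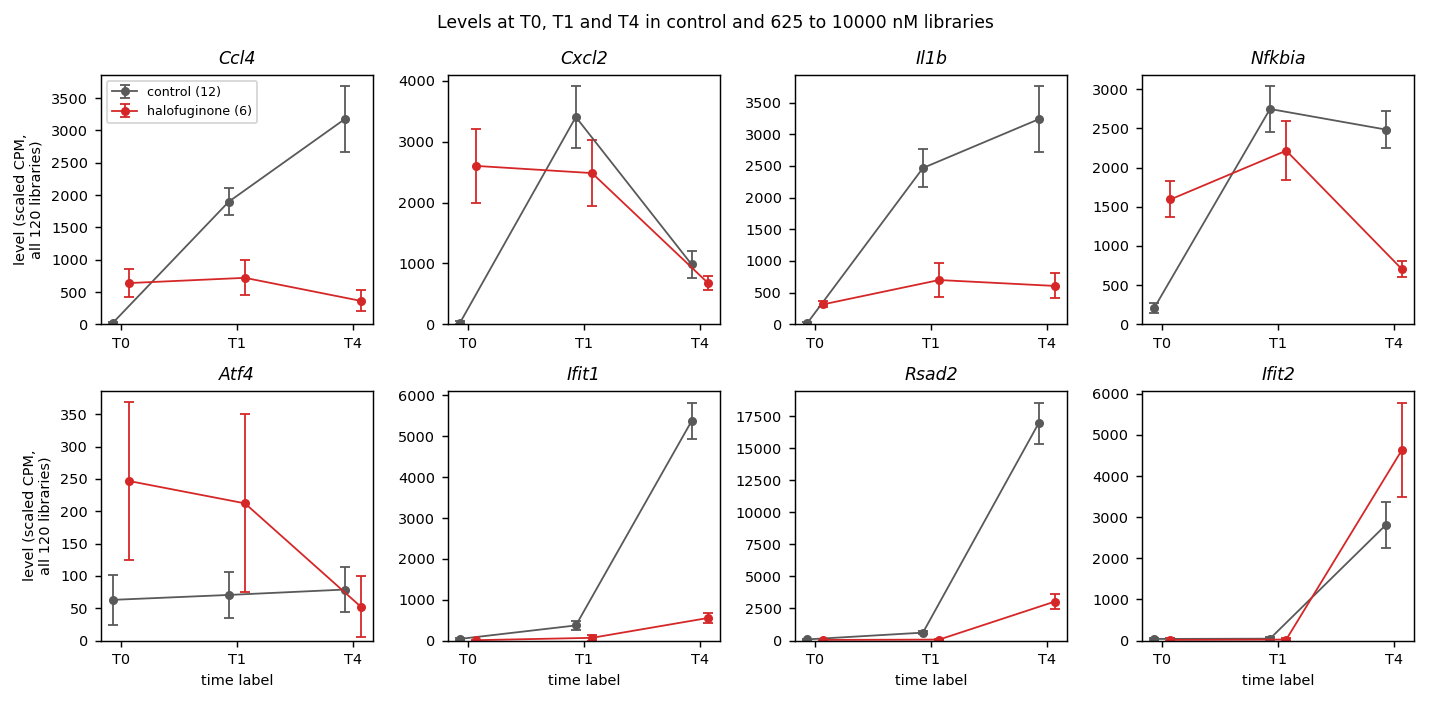
Mean level of 8 genes (vertical axes, scaled CPM over all 120 libraries) at T0, T1 and T4 in 12 controls (grey) and 6 libraries with 625 to 10000 nM halofuginone (red) a time; bars are SD and lines join the means. Ccl4, Il1b, Ifit1 and Rsad2 climb in controls and are lower with halofuginone at T4. Ccl4, Il1b, Cxcl2, Nfkbia and Atf4 are higher with halofuginone at T0.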

How the data were processed

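Raw counts of reads for 23481 gene symbols in 120 libraries were deposited as 1 table by the authors. Per the submitters' processing notes it rests on BWA and mm10. Not given in the sources used here were their versions, the counting program, its strand setting or any use of molecular identifiers. Every column had its sample and every row a gene name. The members and gene lists were chosen with earlier results of these data known. edgeR 4.0.16 in R 4.3.3 tested the counts as deposited: quasi-likelihood fits, TMM scaling, filterByExpr with a minimum count of 10, 1 coefficient for each of the 15 groups of the 40 T4 libraries, and the mean of the 3 high doses less control. A dose without counts weighs heavily in that mean, so such genes are given at T4 by levels or count ratios, and their fitted values in fits without 1 library or between times are no bounds. Differences between times came from 36-library fits. p-values are two-sided and Benjamini-Hochberg adjusted over all genes tested, with a threshold of 0.05. The SE was taken as the size of the log2 fold change over the root of its F statistic. The T4 fit was run on simulated counts, with equal numbers of genes raised and lowered from the make-up of the controls. That simulation held neither the shift in Rn45s nor the trend with length, so it cannot judge the scaling.

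Intervals of ratios are 95% exact counting intervals, floors are 3 counts, and both cover counting error only. Total counts ran from 20000 to 114061 over the series. Genes were named by rule: the 12 largest changes each way among the more abundant genes with all treated libraries on 1 side of the control mean, up to 5 genes a list, 5 each way in the other contrasts, and 20 genes fixed by name. Some genes the rule takes are not reported here. Of 240 replicate pairs none was identical. DESeq2 1.42.0, median-of-ratios scaling, a fit of all genes with no count minimum, a replicate block, fits without structural RNAs, without 10000 nM, of the 18 libraries alone and without each library in turn were the alternatives. Scaling by totals, adjustment for transcript length and leaving out control libraries 2 and 9 were added after the data had been seen. Promoters are RefSeq's, in GRCm38.p6, and gene positions are those of GENCODE M21.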

Additional observations from a re-analysis of the deposited data

Results flagged for a closer look

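In 11 of 91 checks of the 6 treated libraries, over the T4 genes named and 8 library measures, 1 library stood apart from the other 5 in its level, where chance gives about 1 in 20. In scaled CPM these were Fcer1g at 293.4 and Spp1 at 684.6 in the second 2500 nM library, Tmsb4x at 481.6, Tpt1 at 11354.5 and Oaz1 at 25.3 in the first 10000 nM library, and Cd52 at 42.8 in the second. They were also Rpl12 at 54.7 and Akap13 at 1094.0 in the second 625 nM library, and Golph3 at 518.0, Cebpb at 296.0 and Cyba at 37.0 in the first 2500 nM library. For Rpl12, Oaz1, Cd52 and Cyba the library apart holds the only treated counts. Such a gene is always flagged by this check, so the rate of 1 in 20 does not apply to it.

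The effect of halofuginone differed between T4 and T0 in the edgeR test of the difference, given as log2 values, for 16 of the genes followed in that comparison, which are not all the named genes that pass it. Downwards these were Ccl7 at -8.21, Ccl4 at -7.81, Kdm6b at -7.43, Cxcl2 at -7.00, Ccl3 at -6.67, Il1b at -6.53, Irg1 at -6.18, Tnf at -5.19, Nfkbia at -4.81, Ddit3 at -4.53, Ccl5 at -3.51 and Atf4 at -2.69. At T0 Ccl7 had 15 treated counts and 0 in controls, at least 17.1-fold higher, and Irg1 had 13 and 1, a ratio of 44.4 (95% counting interval 6.67 to 1886.5). Ccl7 lost its call without the first 10000 nM (-6.49) or the first 2500 nM library of T0 (-6.58), and Irg1 without the first 10000 nM library of T0 (-4.78). Ccl5 lost it without the first 10000, 2500 or 625 nM library of T0 (-2.40, -1.68 and -2.50). The differences of Atf4 and Ddit3 rest on 10 and 1 treated counts at T4, and that of Ddit3 was -5.49 without the second 625 nM library of T4. Atf4 was -4.23 without the second 2500 nM and -4.11 without the first 625 nM library of T4.

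Upwards the effect differed between T4 and T0 for Ifit2 at 3.52, Bfar at 2.89, Stxbp3a at 1.64 and Eif4g1 at 1.42. Ifit2 was 5.17 without the second 625 nM library of T0. The others lost their calls without single libraries. Bfar did so, at 2.77 to 2.98, without any T0 library but the first 2500 nM and without the first T4 library of each dose. Stxbp3a, beside which the table lists a separate Stxbp3b, did so without the first 10000, first 2500 or second 625 nM library of T0 and the first T4 library of each dose, at 1.33 to 1.52, and was 3.61 without the second 2500 nM library of T0. Eif4g1 did so without the first 10000 or first 2500 nM library of T0 (1.41 and 1.28) and the first 10000 or second 2500 nM of T4 (1.36 and 1.23).

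Between T4 and T1 the effect differed for Cd47 at 3.82, Baz2b at 2.61, Gdi2 at 1.17, Cd52 at -5.12, Rpl12 at -4.75, Oaz1 at -4.23, Rpl32 at -4.16, Basp1 at -4.12, Ccl4 at -1.92 and Nfkbia at -1.69. Rpl12, Rpl32, Oaz1 and Cd52 had 1 or 2 treated counts at T4, so their fitted differences are no bounds. Cd47 lost its call without the second 625 nM library of T4 (3.56), Cd52 without the first 2500 nM library of T1 (-3.22), and Oaz1 without the second 10000, first 2500 or second 625 nM library of T1 (-2.62, -3.95 and -3.92). Gdi2 lost it in 7 of the fits without 1 library, at 0.98 to 1.3: those without either 10000, the second 2500 or the first 625 nM library of T1, or without the second 10000, first 2500 or first 625 nM library of T4. Basp1 was -5.95 without the first 625 nM library of T4, and Baz2b 3.94 and 3.34 without the second 2500 or second 625 nM library of T1. Rpl12 was -6.01 without the second 625 nM library of T4, Cd52 -6.13 without the second and Oaz1 -5.23 without the first 10000 nM library of T4, and Rpl32 -5.12 and -5.23 without the first 10000 or second 2500 nM library of T4.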

How the results depend on the processing

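The counts of called genes moved more than the directions of the named ones. At T4, the calls, 251 of them upwards, became 183 and 497 with median-of-ratios scaling, 92 and 821 of 11796 genes with no filter on low counts, 115 and 310 with the replicate number as a block, 35 and 726 on library totals and 170 and 417 without structural RNAs. Without 1 library they ran from 172 to 255 and from 421 to 467. In the 36-library fit with T0, the same T4 contrast gave 138 higher and 602 lower of 1468 genes (median -0.72). With T1 it gave 175 and 531 of 1445 (median -0.51). Same-numbered libraries did not deviate together, with correlations from -0.06 to 0.02, so the block rests on shared numbers alone. Between T4 and T0, 20 and 233 became 35 and 186 under median-of-ratios factors, 12 and 139 with no filter, 30 and 191 by DESeq2, and 37 and 130 with the length adjustment, and ran from 13 to 25 and from 177 to 237 without 1 library. Between T4 and T1, 8 and 77 became 17 and 39, 8 and 27, 17 and 56, and 15 and 43 in the same order, and 26 and 36 without structural RNAs, and ran from 5 to 15 and from 43 to 60. High against middle doses, 0 and 2, became 1 and 2 under median-of-ratios factors, 1 and 1 with no filter, 2 and 3 by DESeq2, 1 and 2 without structural RNAs and 1 and 1 with the block, and ran from 0 to 3 and from 0 to 11. Between 10000 and 625 nM the count stayed 0 and 0 in each of these, except 5 lower without the first 625 nM library. The cause was not tested.

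Of the called results for named genes, 1668 of those with 1 library left out stayed on their side, 49 lost the call and 1 reversed. Signs reversed on library totals for Cxcl10 (-0.38), Rpl4 (-0.27), Nos2 (-0.45) and Csf1r (-0.84), and with the length adjustment for Cxcl2 (0.49), Tnf (0.28), Il12b (0.20) and Atf4 (0.40). Nos2 was -0.02 with no filter and -0.05 without 10000 nM, and Csf1r -0.12 by median-of-ratios and by DESeq2, -0.38 with no filter, -0.17 without structural RNAs and -0.02 with the block. Without 1 library at T4, Nos2 ran from -1.18 to 0.71, Atf4 from -1.89 to 0.13 and Csf1r from -0.23 to 0.22. Differences from T0 ran from -1.75 to 0.32 for Rsad2 and from -1.17 to 0.23 for Ifit1, that of Ifit1 from T1 from -0.70 to 0.92, and Rpl39, high against middle doses, from -4.30 to 0.31.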
